A study of Mus musculus with 12 samples.

Results

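DNA replication, nucleotide supply and repair genes were followed as a set of 47 genes in smooth muscle cells, which make up the muscular layer of arteries, grown as primary cultures from mouse aorta. The genes were taken by symbol from a fixed list, and all 47 were found among the 55822 genes of the count table and had enough counts to be tested. RNA was sequenced in 12 libraries, 4 for each of 3 media. The cells were starved for 48 hours in medium with 0.3% serum and then kept for 24 hours in medium conditioned by bone marrow-derived macrophages. The naive conditioned medium (naive CM) came from unstimulated macrophages. The IFNγ/LPS conditioned medium (IFNγ/LPS CM) came from macrophages given 20 ng/mL interferon gamma overnight and 100 ng/mL lipopolysaccharide for 4 hours, then washed before the medium was collected. M-CSF, a growth factor for macrophages, was present at 10 ng/mL in either conditioned medium, beside 0.3% serum. Macrophages conditioned either medium for 24 hours. The third group received regular growth medium, and its serum content and its starvation are not given separately in the labels. Starvation, serum, M-CSF and macrophage products therefore cannot be told apart in a comparison with regular medium. No strain, age or genotype is given for the cells. The titles call the libraries biological replicates, but no animal or culture is named for any of them. The p-values therefore reflect only how these libraries vary, which may in part be technical.

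A cell that enters S phase first loads the MCM helicase onto origins through the origin recognition complex, CDC6 and CDT1, and then activates it with CDC45, the GINS complex and MCM10. Polymerases, the PCNA clamp with its RFC loader and the lagging-strand enzymes copy the DNA from deoxynucleotides made by ribonucleotide reductase, thymidylate synthase and thymidine kinase. Many of these genes are targets of the E2F factors, which the RB protein holds back in resting cells. In the healthy artery wall smooth muscle cells divide rarely, and they can return to the cell cycle after injury or in culture.

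As many of these genes are known E2F targets, the promoters of 4 genes are shown as examples, with the binding words of the E2F factors marked. The helicase genes Mcm5 and Mcm6 hold several E2F words, and the polymerase alpha subunits Pola1 and Pola2 had unlike values in IFNγ/LPS CM, given further on. Each sequence is the 250 bases before the RefSeq start site on GRCm38.p6, 5′ to 3′ on the gene's strand, with the E2F words in capitals. The regions are chr8:75109259-75109508 on the plus strand for Mcm5, chr1:128359706-128359955 on the minus strand for Mcm6, chrX:93632156-93632405 on the minus strand for Pola1 and chr19:5964207-5964456 on the minus strand for Pola2.
Mcm5: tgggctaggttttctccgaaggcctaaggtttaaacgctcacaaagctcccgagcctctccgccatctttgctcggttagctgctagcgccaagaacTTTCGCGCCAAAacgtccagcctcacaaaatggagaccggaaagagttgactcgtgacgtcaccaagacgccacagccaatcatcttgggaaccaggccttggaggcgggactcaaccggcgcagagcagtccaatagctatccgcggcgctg
Mcm6: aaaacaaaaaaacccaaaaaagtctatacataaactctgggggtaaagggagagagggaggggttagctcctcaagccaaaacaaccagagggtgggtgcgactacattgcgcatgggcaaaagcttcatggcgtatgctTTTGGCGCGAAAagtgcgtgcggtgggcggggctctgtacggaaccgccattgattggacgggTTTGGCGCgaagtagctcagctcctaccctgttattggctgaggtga
Pola1: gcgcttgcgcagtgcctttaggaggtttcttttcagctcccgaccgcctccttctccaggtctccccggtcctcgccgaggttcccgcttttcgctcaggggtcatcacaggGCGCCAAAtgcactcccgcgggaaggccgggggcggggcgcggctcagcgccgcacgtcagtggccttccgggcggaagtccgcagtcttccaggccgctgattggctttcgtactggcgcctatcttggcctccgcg
Pola2: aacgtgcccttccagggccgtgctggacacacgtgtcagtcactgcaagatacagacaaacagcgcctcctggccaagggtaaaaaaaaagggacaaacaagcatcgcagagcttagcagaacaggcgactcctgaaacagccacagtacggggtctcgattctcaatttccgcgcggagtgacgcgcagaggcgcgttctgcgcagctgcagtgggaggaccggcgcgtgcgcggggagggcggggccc

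The words searched were TTTCCCGC, TTTCGCGC, TTTGCCGC and TTTGGCGC, on both strands and with overlaps allowed, in windows of 250 bases before to 50 bases after the start. A window was at hand for 41 of the 47 genes. Of these, 17 held at least 1 E2F word (41.5%), against 704 of 27025 genes with a window (2.6%) and 1 of 25 mitosis genes (4.0%). In Mcm5 a pair of words on opposite strands overlapped, with first bases at -153 and -149 from the start. In Mcm6 such a pair began at -110 and -106, and a further word lay at -47. Pola1 held 1 word at -138, and Pola2 and the thymidine kinase gene Tk1 held none. The word CCAAT was in 58.5% of the 41 windows and in 41.1% of all windows. TTTGAA, the core of the cell cycle element CHR, was in 14.6% of the 41 windows, 72.0% of the mitosis windows and 20.2% of all windows. The GC-rich word GGGCGG was in 73.2% of the 41 windows, 80.0% of the mitosis windows and 38.2% of all windows. The part of base composition in these shares was not tested. The median log2 fold change in IFNγ/LPS CM against naive CM was -1.31 for the 17 genes with a word and -1.36 for the 24 without, and in naive CM against regular medium it was 0.71 and 0.82. A word in a window is a description and not a bound site.

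Total estimated counts ran from 28097496 to 61493375 per library, and 16140 genes were tested. Levels are in CPM, counts per 1000000 after TMM scaling of each library's total, and adjusted p-values are from the edgeR quasi-likelihood test with Benjamini-Hochberg adjustment over all 16140 genes, called below 0.05. In bulk RNA, fewer cells in S phase and less of these RNAs in each such cell cannot be told apart. The smooth muscle label was checked on 10 markers: Acta2 was at 280 ± 29.9 CPM in regular medium (SD, n = 4), while Myh11 and Cnn1, the markers of the mature contractile state, were at 0.717 and 0.276 CPM. Summed over the 10 genes, the level was 1172 to 1303 CPM with regular medium, 786 to 878 with naive CM and 257 to 278 with IFNγ/LPS CM. Cald1 was the largest part of this sum, with means of 808, 454 and 118 CPM in that order. In naive CM against regular medium the list was split: Smtn, Lmod1 and Tpm2 rose, while Acta2, Tagln, Myocd and Cald1 fell. Myh11, Cnn1 and Des had no call there. Against naive CM, 8 of the 10 genes fell in IFNγ/LPS CM and none rose. The 8 fibroblast markers, led by Dcn, summed to 2015 to 2315 CPM in regular medium and 2055 to 2228 in naive CM. In IFNγ/LPS CM their sum was 6830 to 7507 CPM, and Tcf21 held 0 counts in all libraries. Of the 7 fibroblast markers tested, 3 were higher in IFNγ/LPS CM than in naive CM (Dcn 2.93-fold, Ly6a 11.1-fold, Pdgfra 4.92-fold), 3 were lower (Dpt 37.5-fold, Col14a1 2.33-fold and Pi16) and Lum did not pass. The 8 endothelial markers summed to at most 3.39 CPM. The 12 macrophage markers summed to 20.7 to 22.0, 15.2 to 17.0 and 857 to 970 CPM, with Mpeg1 alone at 874 ± 50.6 CPM in IFNγ/LPS CM. Of the 5 tested, 4 were higher in IFNγ/LPS CM than in naive CM (Mpeg1, Csf1r 21.2-fold, Cd68 5.83-fold, Lyz2 5.25-fold) and Mertk was lower, while Adgre1, Itgam, Tyrobp and Ptprc held 1 to 6 counts over the 4 IFNγ/LPS CM libraries and Fcgr1 held 0. The part of these shifts in the results on replication genes was not tested.

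The replication genes were highest in naive CM, intermediate in regular medium and lowest in IFNγ/LPS CM. Their summed level was 1116 CPM on average over the 4 regular medium libraries (range 1042 to 1268), 1937 in naive CM (1850 to 2025) and 769 in IFNγ/LPS CM (710 to 848). The ranges of the 3 media did not overlap. Naive CM and IFNγ/LPS CM each enter 2 of the 3 comparisons, as does regular medium, so the comparisons are not independent of one another.

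**Figure D1:**
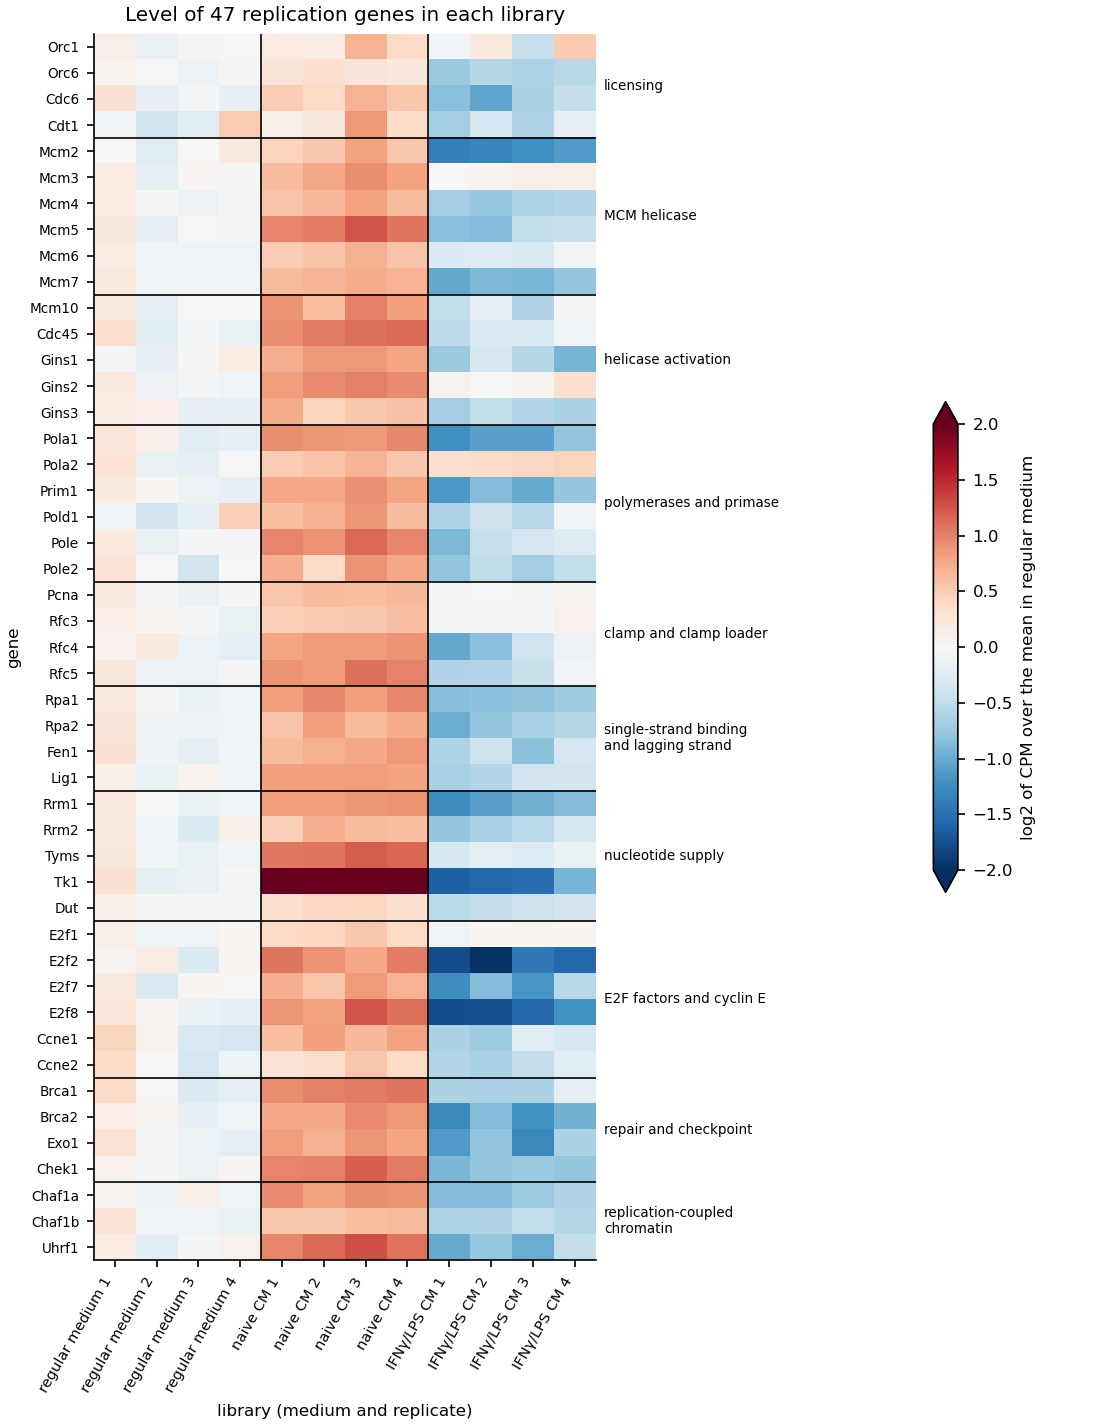
Level of the 47 replication genes in each of the 12 libraries, as the log2 of its CPM over the gene's mean CPM in regular medium, with genes in rows grouped by role and libraries in columns grouped by medium. The colour scale ends at 2 in either direction, which Tk1 exceeds in 3 naive CM libraries, and the naive CM columns are higher and the IFNγ/LPS CM columns lower for most rows.

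The first comparison set naive CM against regular medium, which asks how cells in medium of unstimulated macrophages differ from cells in their usual medium. Of the 47 genes 45 were higher in naive CM, where 18.3% of all genes tested were called higher, and none was lower, where 16.4% were called lower. The median log2 fold change was 0.78, with a range from 0.27 to 2.08, beside -0.02 for all genes tested. The libraries of both media were separate for 45 genes, against 17.2% of all genes that were higher without overlap. In 8 genes the rise was at least 2-fold, against 2.87% of all genes: Tk1, Uhrf1, Tyms, Mcm5, Chek1, Cdc45, E2f8 and Brca1.

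Tk1, the thymidine kinase that salvages thymidine for DNA synthesis, had the largest rise. It stood at 22.3, 15.8, 16.2 and 17.5 CPM in the 4 regular medium libraries and at 71.5, 75.5, 79.3 and 77.7 CPM in the naive CM libraries. Every naive CM library was above 3 times the highest regular medium library. The fold was 4.22 (log2 fold change 2.08, SE 0.14, edgeR adjusted p = 6.06e-07). Tyms, the thymidylate synthase of the de novo route, rose 2.17-fold (log2 fold change 1.12), the reductase subunits Rrm1 and Rrm2 by 0.86 and 0.61 on the log2 scale, and Dut, which clears dUTP, by 0.37.

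The helicase genes rose together, all 6 of 6, with Mcm5 ahead of the rest. Mcm5 was at 37.0, 27.5, 31.5 and 30.7 CPM in regular medium and at 62.0, 64.4, 75.5 and 66.4 CPM in naive CM, with a log2 fold change of 1.08 (SE 0.11, edgeR adjusted p = 1.02e-05). The other 5 MCM genes rose by 0.59 to 0.79 on the log2 scale. All 5 helicase activation genes rose, Cdc45 the most among them with 1.05. The polymerase and primase genes (6 of 6) had a median of 0.76, with Pold1 at 0.71 and not past the test without the 2 libraries under 30000000 counts (0.60, edgeR adjusted p = 0.0647). The clamp and clamp loader genes (4 of 4) 0.72, and the single-strand binding and lagging-strand genes (4 of 4) 0.78. Pcna, the sliding clamp, rose from 96.1 ± 9.07 to 146 ± 4.13 CPM.

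Regulators and repair genes moved in the same direction. The E2F and cyclin E genes were all 6 higher, from 0.39 for Ccne2 to 1.02 for E2f8, an atypical E2F that represses E2F targets. The call of Ccne2 was borderline: its edgeR adjusted p of 0.0332 became 0.066 with the replicate number as a block. It was 0.0582 to 0.0914 without one or another of 6 libraries, with log2 fold changes of 0.293 to 0.402. The recombination genes Brca1 and Brca2, the nuclease gene Exo1 and the checkpoint kinase gene Chek1 rose by 1.00, 0.83, 0.80 and 1.05 on the log2 scale. The replication-coupled chromatin genes Chaf1a and Chaf1b, subunits of the histone chaperone CAF-1, and Uhrf1, which guides maintenance methylation, rose by 0.90, 0.59 and 1.12.

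Origin licensing genes had the lowest median of the 10 roles, 0.38. Orc6 rose by 0.27 and Cdc6 by 0.54 on the log2 scale. Orc1 did not pass the test: its level was 1.69 ± 0.118 CPM in regular medium and 2.16 ± 0.387 in naive CM, with an edgeR adjusted p of 0.155. Cdt1, at 5.24 ± 1.52 and 7.04 ± 1.72 CPM, did not pass either (edgeR adjusted p = 0.139), and passed without regular medium library 4, its highest, at 0.00737.

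**Figure D2:**
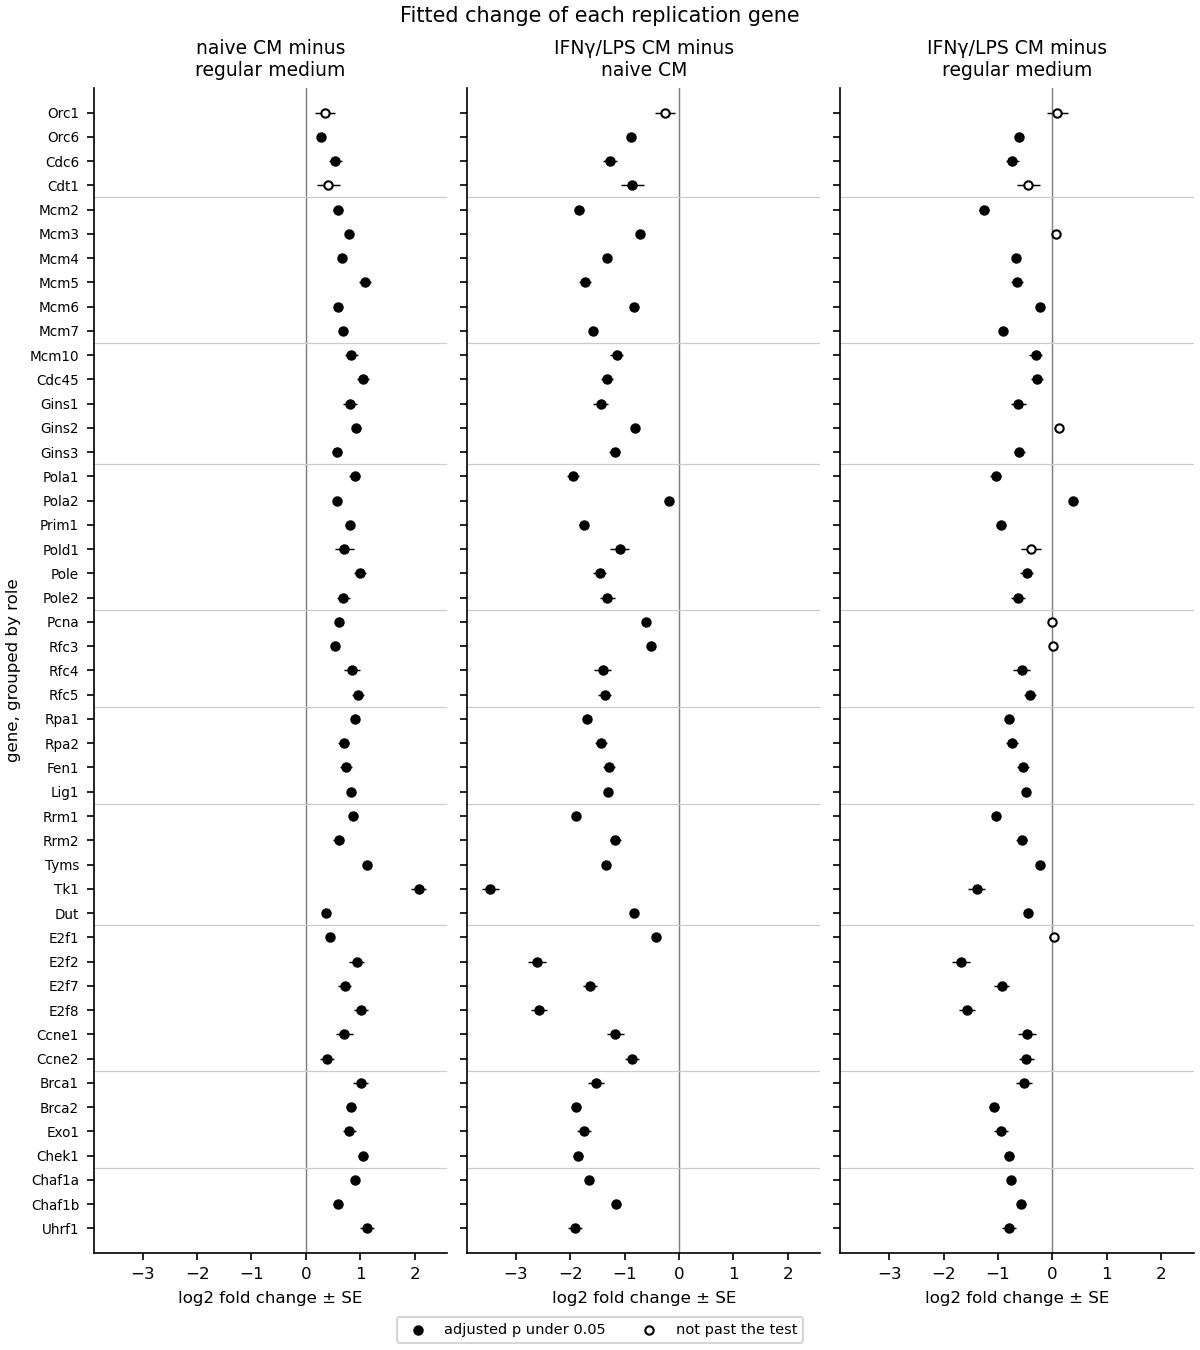
Fitted log2 fold change with its standard error for each of the 47 genes (rows, grouped by role) in the 3 comparisons (panels), filled where the edgeR adjusted p was below 0.05. In the middle panel 46 of 47 points lie left of 0 and are filled, from Pola2 at -0.19 to Tk1 at -3.47.

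The second comparison set IFNγ/LPS CM against naive CM, which asks what stimulation of the macrophages changes in the response of the smooth muscle cells. Of the 47 genes 46 were lower, where 35.8% of all genes tested were called lower, and none was higher, where 36.1% were called higher. The median log2 fold change was -1.33, with a range from -3.47 to -0.19, beside 0.00 for all genes tested. In 35 of the 47 genes the fall was at least 2-fold, against 15.0% of all genes. Falls of at least 4-fold were in 3 of the 47, a share near that of all genes (6.78%). The libraries of the 46 genes did not overlap between the media, against 34.6% of all genes that were lower without overlap. With library totals in place of TMM all genes shifted by a median of -0.38, the median of the replication genes was -1.72, and the split of all calls moved from 5830 higher and 5781 lower to 3279 higher and 9371 lower.

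The nucleotide supply genes fell in all 5 cases. Tk1 was at 5.79, 6.05, 6.29 and 9.38 CPM in the IFNγ/LPS CM libraries, against 71.5 to 79.3 in naive CM. The groups were far apart, and the fold was 11.1 lower (log2 fold change -3.47, SE 0.16, edgeR adjusted p = 1.4e-09). Rrm1, the large subunit of ribonucleotide reductase, stood at 185, 187, 192 and 195 CPM in naive CM and at 44.3, 49.0, 53.7 and 57.1 CPM in IFNγ/LPS CM. It fell 3.72-fold (edgeR adjusted p = 5.08e-12), while Rrm2, the regulated small subunit, fell 2.25-fold, Tyms 2.55-fold and Dut 1.77-fold.

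The E2F and cyclin E genes fell in all 6 cases, by 0.42 to 2.62 on the log2 scale. E2f2, an activating E2F, was at 4.08, 3.61, 3.27 and 3.93 CPM in naive CM and at 0.565, 0.492, 0.721 and 0.649 CPM in IFNγ/LPS CM, from 86 counts over the 4 latter libraries. The log2 fold change was -2.62 (SE 0.16, edgeR adjusted p = 2.27e-11), and that of E2f8 was -2.58. E2f1, the other activating E2F among these 6 genes, was at 11.2, 11.4, 12.4 and 11.2 CPM in naive CM. In IFNγ/LPS CM it was at 8.15, 8.80, 8.95 and 8.73 CPM, also without overlap. Its log2 fold change was -0.42 (SE 0.07, edgeR adjusted p = 4.68e-05). The atypical factor E2f7 fell by 1.64 on the log2 scale, and the cyclin E genes Ccne1 and Ccne2 by 1.17 and 0.86.

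**Figure D3:**
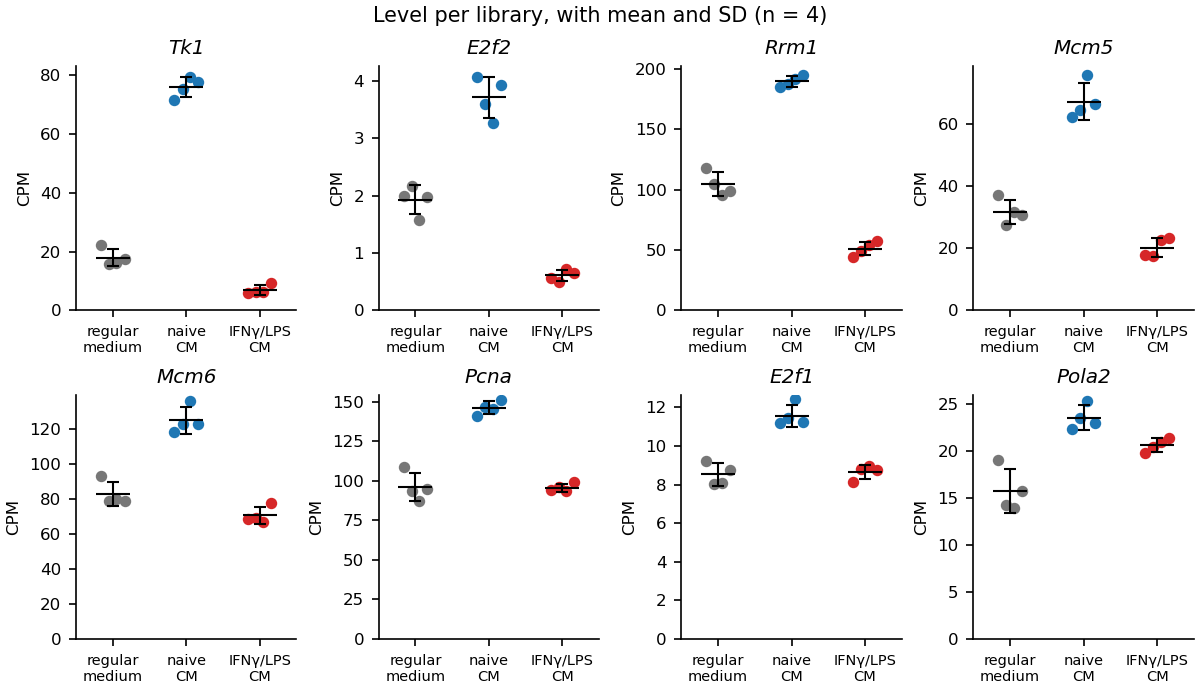
Level of 8 replication genes in CPM by medium, 1 point per library with the group mean and SD as bars. Tk1, Rrm1, Mcm5 and E2f2 are lowest in IFNγ/LPS CM in all 4 libraries, whereas the E2f1 and Pcna points of IFNγ/LPS CM lie among those of regular medium.

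All 6 helicase genes were lower in IFNγ/LPS CM, by 1.64-fold to 3.58-fold. Mcm2 fell from 57.9 ± 6.38 to 16.2 ± 1.15 CPM and Mcm5 from 67.1 ± 5.92 to 20.2 ± 3.02 CPM, 3.58-fold and 3.32-fold. Mcm7 and Mcm4 fell 3.01-fold and 2.51-fold. Mcm6 and Mcm3 fell 1.77-fold and 1.64-fold, with 70.7 ± 4.89 and 33.8 ± 1.41 CPM left. Per kilobase of the union of a gene's annotated exons, the order in naive CM was Mcm6, Mcm7, Mcm4, Mcm5, Mcm3 and Mcm2, from 26.8 to 8.32 CPM per kb. That union is not the length of the transcripts present, so the order between genes is only approximate. In IFNγ/LPS CM Mcm6 was at 15.2, Mcm3 at 9.02, Mcm4 at 8.99, Mcm7 at 8.17, Mcm5 at 5.05 and Mcm2 at 2.32 CPM per kb. The proteins form a ring with 1 copy of each, and RNA levels say nothing of protein amounts.

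All 6 polymerase and primase genes were lower, with values far apart for the subunits of polymerase alpha, a difference that was not tested. Pola1, the catalytic subunit, was at 58.5, 56.8, 56.5 and 59.9 CPM in naive CM and at 13.1, 14.6, 14.6 and 17.9 CPM in IFNγ/LPS CM. Pola2, its regulatory B subunit, was at 22.3, 23.5, 25.3 and 22.9 CPM and at 19.7, 20.4, 21.0 and 21.4 CPM. Neither gene's libraries overlapped between the media, with log2 fold changes of -1.95 (SE 0.11, edgeR adjusted p = 1.23e-09) for Pola1 and -0.19 (SE 0.08, edgeR adjusted p = 0.0449) for Pola2. The call of Pola2 was not stable: its adjusted p was 0.0561 with limma-voom, 0.0619 with the replicate block and 0.0513 to 0.121 without one or another of 7 libraries. Prim1, the primase catalytic subunit that works with both, fell by 1.76 on the log2 scale, and the leading-strand polymerase genes Pole and Pole2 by 1.46 and 1.32. Pold1, the catalytic subunit of polymerase delta, fell 2.14-fold.

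At the moving fork, Rpa1, the large subunit of the single-strand binding protein, fell from 175 ± 8.29 to 54.1 ± 2.28 CPM (log2 fold change -1.70), Rpa2 by 1.44, the flap nuclease gene Fen1 by 1.29 and the ligase gene Lig1 by 1.31. The clamp genes were all lower: Pcna and the loader subunit gene Rfc3 fell by 0.61 and 0.53 on the log2 scale, and Rfc4 and Rfc5 by 1.41 and 1.37. The helicase activation genes fell in 5 of 5 cases, from 0.81 for Gins2 to 1.44 for Gins1. Of the licensing genes, Cdc6 fell by 1.27, Orc6 by 0.89 and Cdt1 by 0.86. Orc1 was the single gene of the 47 that did not pass, at 1.89, 1.86, 2.70 and 2.19 CPM in naive CM and at 1.61, 1.94, 1.22 and 2.42 CPM in IFNγ/LPS CM (log2 fold change -0.25, edgeR adjusted p = 0.23). The Orc1 libraries overlapped, with IFNγ/LPS CM library 4 as the second highest of the 8, and its edgeR adjusted p was 0.0483 without that library. With library totals the log2 fold change of Orc1 was -0.64 (edgeR adjusted p = 0.00399), and all 47 genes were lower.

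Repair and checkpoint genes and replication-coupled chromatin genes had the lowest medians of the 10 roles, -1.80 and -1.66, with 4 of 4 and 3 of 3 genes lower. Brca2, which acts in the repair of broken DNA by homologous recombination, was at 23.5, 23.2, 26.4 and 24.9 CPM in naive CM and at 5.62, 7.52, 5.93 and 7.14 CPM in IFNγ/LPS CM. The libraries were well apart, with a 3.74-fold fall (edgeR adjusted p = 4.22e-13). Chek1, Exo1 and Brca1 fell 3.62-fold, 3.34-fold and 2.87-fold. Uhrf1 fell 3.79-fold, Chaf1a 3.16-fold and Chaf1b 2.23-fold.

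The third comparison set IFNγ/LPS CM against regular medium. Of the 47 genes 38 were lower, where 36.4% of all genes tested were called lower, and 1 was higher, where 35.4% were called higher. The median log2 fold change was -0.57, with a range from -1.68 to 0.39, beside -0.03 for all genes. In 30 genes the libraries were lower without overlap, against 32.7% of all genes, and in 1 higher without overlap, against 32.5%. The largest falls were those of E2f2 (-1.68), E2f8 (-1.57), Tk1 (-1.39) and Mcm2 (-1.25). Falls of at least 2-fold were in 7 of the 47 genes, a share near that of all genes (14.4%). With library totals all genes shifted by a median of -0.41 and the split of all calls moved from 5712 higher and 5882 lower to 3279 higher and 9597 lower.

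The 8 genes that did not pass in this comparison were Orc1, Cdt1, Mcm3, Gins2, Pold1, Pcna, Rfc3 and E2f1. Pcna was at 109, 93.5, 87.4 and 94.7 CPM in regular medium and at 93.9, 96.3, 93.7 and 99.0 CPM in IFNγ/LPS CM. The libraries overlapped, and the log2 fold change was -0.01 (SE 0.05, edgeR adjusted p = 0.91). That of E2f1 was 0.02 (SE 0.07, edgeR adjusted p = 0.812), of Rfc3 0.01 and of Mcm3 0.07. With library totals, which shift all genes down, all 8 had negative values, among them Pcna at -0.39 and E2f1 at -0.36, and all of them but Orc1 then passed, for 45 genes lower in place of 38. Pold1 also passed with the DESeq2 Wald test (adjusted p = 0.0182), the replicate block (edgeR adjusted p = 0.0434) and without IFNγ/LPS CM library 4 or regular medium library 2, and Cdt1 with the Wald test (0.0299), with only the groups compared (edgeR adjusted p = 0.0488), without regular medium library 2 and without the 2 libraries under 30000000 counts. Among the genes called lower, Cdc45 lost its call with limma-voom (adjusted p = 0.0608), with the block (edgeR adjusted p = 0.0556) and without IFNγ/LPS CM library 1, 2 or 3 or regular medium library 1 (0.0553 to 0.147). Mcm10 lost its call without IFNγ/LPS CM library 1 or 3 or regular medium library 1, 3 or 4 (edgeR adjusted p from 0.0505 to 0.103), and Ccne1 with the block (0.0507) and without IFNγ/LPS CM library 1 or 2 or regular medium library 1 (0.06 to 0.0788). Pola2 was the 1 gene higher in IFNγ/LPS CM: regular medium libraries stood at 19.1, 14.2, 13.9 and 15.8 CPM, and all 4 IFNγ/LPS CM libraries were at or above 19.7 CPM. Its log2 fold change was 0.39 (SE 0.08, edgeR adjusted p = 3.55e-04), and -0.002 with library totals.

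Ratios of a pair of replication genes within a library do not depend on the scaling between libraries, and 12 pairs were compared in the 3 comparisons. None of the 36 differences passed after adjustment in an exact two-sided permutation test. The smallest p that 4 against 4 libraries allow in this test is 0.0286, and the smallest adjusted p was 0.057. At this floor a pair could pass only if most of the 36 differences reached it too, whatever the size of its own shift. The test therefore could not decide on single pairs. The largest shift was in the E2F pair. The log2 ratio of E2f2 to E2f1 was -3.82 ± 0.22 in IFNγ/LPS CM and -1.64 ± 0.207 in naive CM (SD, n = 4), without overlap. The log2 ratio of Tk1 to Tyms was 0.84 ± 0.032 in naive CM, -1.30 ± 0.258 in IFNγ/LPS CM and -0.12 ± 0.088 in regular medium. The Rrm2 to Rrm1 ratio went the other way, from -2.14 ± 0.104 in naive CM to -1.42 ± 0.06 in IFNγ/LPS CM. The E2f8 to E2f7 ratio was lower in IFNγ/LPS CM, at -1.21 ± 0.204 against -0.28 ± 0.127. Ratios of Pole2 to Pole, of Mcm5 to Mcm2 and of Ccne2 to Ccne1 overlapped between naive CM and IFNγ/LPS CM. So did those of Orc1 to Orc6, of Rpa2 to Rpa1 and of Cdt1 to Cdc6.

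**Figure D4:**
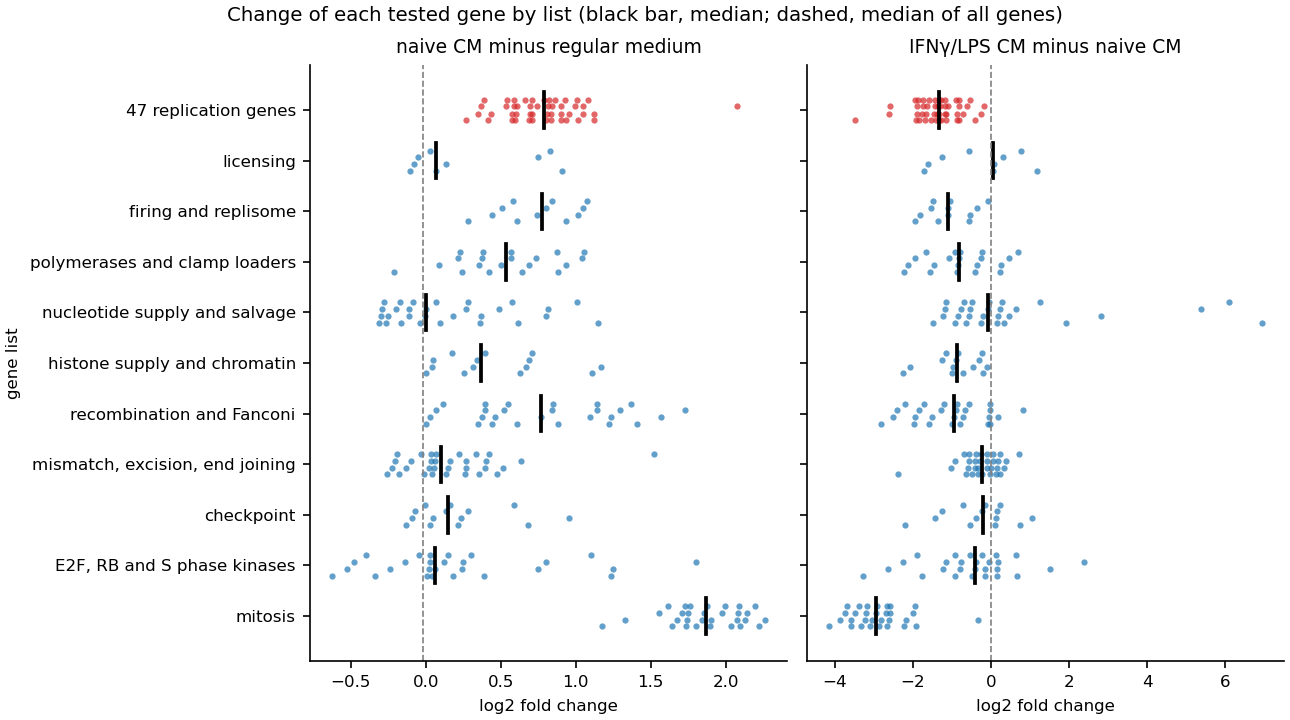
Log2 fold changes of the replication genes and of 10 other gene lists in the comparisons of naive CM with each other medium, 1 point per gene with the median of each list marked. The mitosis list has a median of -2.93 in IFNγ/LPS CM against naive CM and of 1.87 in naive CM against regular medium, beside -1.33 and 0.78 for the 47 replication genes.

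Other genes of the same processes were read in lists with no gene of the 47. Of all genes tested, 35.8% were called lower in IFNγ/LPS CM against naive CM and 18.3% higher in naive CM against regular medium. In IFNγ/LPS CM against naive CM the mitosis list had 30 of 30 genes lower, with a median of -2.93 and Cenpf, Ccnb2 and Prc1 in front, and in naive CM against regular medium 30 of 30 were higher, with a median of 1.87. Mki67, the proliferation marker, was at 249 ± 12.0 CPM in naive CM, at 27.5 ± 6.26 in IFNγ/LPS CM and at 67.8 ± 6.33 in regular medium. Top2a fell by 2.67 on the log2 scale in IFNγ/LPS CM against naive CM. The firing and replisome list had 11 of 12 genes lower and none higher (Recql4 -1.94, Clspn -1.83, and Cdc7, the kinase that fires origins, -1.53). All 14 genes of the histone and chromatin list were lower (Asf1b -2.24, Ezh2 -2.07), and the maintenance methyltransferase gene Dnmt1 fell by 1.16.

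Lists of the wider machinery held both genes called lower and genes called higher in that comparison. Over all genes tested the shares were 35.8% lower and 36.1% higher. The polymerase and recombination lists were mostly lower, and the licensing and checkpoint lists were closer to an even split. Of 9 further genes listed under licensing, a broad list and not one of licensing factors alone, 4 were lower, among them Gmnn at -1.61. The 3 higher genes were Orc5 at 1.17, Mcm9 at 0.78 and Orc3 at 0.32, the last of which was -0.07 with library totals. Of 20 further polymerase, clamp loader and lagging-strand genes 16 were lower, led by the PCNA-associated factor Pclaf at -2.21, and 4 were higher. Homologous recombination and Fanconi genes were lower in 20 of 27 cases and higher in 2, led by Rad51c at -2.80 and Fancd2 at -2.50. Mismatch, excision and end-joining genes were lower in 16 of 32 cases and higher in 7, a split of 28 lower and 1 higher with library totals, with Neil3 at -2.37. Of 14 checkpoint genes 7 were lower (Wee1 -2.21, Chek2 -1.25) and 5 higher, with the damage kinase gene Atm at 1.06.

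Nucleotide genes outside the 47 went both ways. Of 29 tested 13 were lower, led by the purine synthesis gene Paics at -1.47, and 10 were higher, beside 35.8% and 36.1% of all genes tested. Samhd1, which hydrolyses deoxynucleotides, stood at 42.9 ± 2.25 CPM in naive CM (41.6 to 46.2) and at 1771 ± 121 CPM in IFNγ/LPS CM (1654 to 1908), with no overlap and a log2 fold change of 5.37 (SE 0.07, edgeR adjusted p = 2.31e-22). Upp1, the uridine phosphorylase gene, rose by 6.94 from 1.12 ± 0.219 to 135 ± 8.48 CPM, and Xdh, the xanthine dehydrogenase gene, by 6.10 from 6.17 ± 0.657 to 422 ± 12.9 CPM. Rrm2b, the p53-induced reductase subunit gene, was 0.16 higher (edgeR adjusted p = 0.0121), and -0.23 with library totals.

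Of 28 tested genes of the E2F, RB and S phase kinase list, 17 were lower and 7 higher in IFNγ/LPS CM against naive CM. The shares over all genes tested were 35.8% and 36.1%. Cdkn1a, which encodes the kinase inhibitor p21, was at 225 ± 15.4 CPM in IFNγ/LPS CM, 43.3 ± 2.81 in naive CM and 62.5 ± 7.67 in regular medium. It was lower in naive CM than in regular medium (log2 fold change -0.53, edgeR adjusted p = 2.27e-04) and higher in IFNγ/LPS CM than in naive CM (2.38, edgeR adjusted p = 4.72e-12). Ccnd1, the D cyclin that starts the release of E2F from RB, was at 369 ± 18.7, 1245 ± 75.9 and 1126 ± 126 CPM in the same order. It fell by 1.76 against naive CM and did not pass between naive CM and regular medium (0.14, edgeR adjusted p = 0.119). Ccna2, the S phase and mitotic cyclin, fell by 3.28, Cdk2 by 0.48, and Rb1 was 0.15 higher (edgeR adjusted p = 0.0108) but -0.23 with library totals.

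Several libraries stood above or below their group in most of the 47 genes. Regular medium library 1 was above its group's mean in 44 of the 47 genes and in 30 of 30 mitosis genes. IFNγ/LPS CM library 4 was above in 45 of 47 and 29 of 30, and IFNγ/LPS CM library 1 in 0 of 47 and 1 of 30. The median deviations of these libraries on the log2 scale were 0.19, 0.17 and -0.12. Regular medium library 3 was above in 6 of 47 genes (median deviation -0.11) and naive CM library 3 in 38 of 47 (0.08). The median changes in the comparisons that regular medium enters were 0.78 and -0.57. Without regular medium library 1, 35 genes were lower and 2 higher in IFNγ/LPS CM against regular medium, with Gins2 (log2 fold change 0.19, edgeR adjusted p = 0.0352) beside Pola2.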

How the data were processed

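Polyadenylated RNA was sequenced as stranded paired reads, per the labels' protocols. Per the submitters' processing notes, the authors used Salmon 1.10.1 with the mm10 build and deposited estimated counts per gene as whole numbers. Neither the annotation release nor the way transcripts were summed to genes is stated there. Identifiers without their version matched a symbol in GENCODE M21 for 51344 of 55822 genes, and coordinates are GRCm38. Columns were joined to titles by name, taking M0 for the naive and M1 for the IFNγ/LPS-treated state, their usual meaning, on which every direction rests.

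Genes were filtered with filterByExpr, which kept 16140, scaled by TMM and tested with the edgeR 4.0.16 quasi-likelihood F-test (robust, two-sided, R 4.3.3) in a single model of the 12 libraries (9 residual degrees of freedom), after a test on simulated data. The approximate SE divides the log2 fold change by the root of its F. Ratios used counts plus 0.5, and deviations of a library from its group's mean log2(CPM + 0.1). Same-numbered libraries did not deviate together (correlations -0.134 to 0.197 over 12 pairs), so they were not paired. Alternatives were DESeq2 1.42.0 size factors, library totals, no filter, a filter of 1 CPM in 4 libraries, the DESeq2 Wald test, limma-voom (limma 3.58.1), only the groups compared, a replicate block, a minimum fold of 1.5, leaving out each library and, chosen after seeing the data, leaving out the 2 libraries under 30000000 counts. The 47 genes, the lists, the pairs and the tests were chosen with earlier results of these data known. Outside the 47, the rule named 9 genes whatever their result and, from each list, up to 3 genes in each direction with the largest change in IFNγ/LPS CM against naive CM past the test, at least 1 CPM and no overlap, of which a part is named and some are not reported here. Promoter windows are from RefSeq on GRCm38.p6.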

Additional observations from a re-analysis of the deposited data

Results flagged for a closer look

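Of 141 groups of 4 libraries searched (47 genes in 3 media), 10 held a library whose gap to the nearest other exceeded Dixon's critical value. Chance flags about 5% of groups, so 10 is not far from that share. The groups share libraries and are not independent: regular medium library 1 was above its group's mean in 44 of the 47 genes. Regular medium library 1 stood above the other 3 in 6 genes. It was at 93.1 CPM for Mcm6 (others 79.0 to 79.9), 77.9 for Mcm7 (63.7 to 65.0), 12.0 for Rpa2 (9.34 to 9.40), 21.7 for Fen1 (15.5 to 16.5), 41.6 for Dut (37.4 to 37.9) and 18.0 for Chaf1b (13.5 to 14.2). IFNγ/LPS CM library 4 stood above the others in 3 genes, with Gins2 at 14.7 CPM (others 11.8 to 12.2), Tk1 at 9.38 (5.79 to 6.29) and Brca1 at 15.9 (11.5 to 11.6). Naive CM library 3, 1 of the 2 shallow libraries, was at 27.4 CPM for Prim1 (others 24.7 to 25.1).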

How the results depend on the processing

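No alternative turned the direction of any of the 47 genes in either comparison with naive CM. With library totals the median was -1.718 in IFNγ/LPS CM against naive CM and -0.956 against regular medium, where 0 genes were then higher. A minimum fold of 1.5 left 41 genes lower in IFNγ/LPS CM against naive CM (Cdt1, Pola2, Pcna, Rfc3 and E2f1 lost their call), 19 genes higher in naive CM, and 0 higher and 14 lower in IFNγ/LPS CM against regular medium. The replicate block gave 45 lower in IFNγ/LPS CM against naive CM, 44 higher in naive CM, and 37 lower and 1 higher in IFNγ/LPS CM against regular medium, with medians of -1.331, 0.783 and -0.579. Leaving out single libraries gave 45 to 46 lower with medians of -1.37 to -1.274 in IFNγ/LPS CM against naive CM, 44 to 45 higher with medians of 0.73 to 0.864 in naive CM, and 35 to 40 lower, 1 to 2 higher and medians of -0.644 to -0.524 in IFNγ/LPS CM against regular medium. Reversals were all in this last comparison, in genes that had not passed the test apart from Pola2. With library totals they were Orc1 -0.293, Mcm3 -0.314, Gins2 -0.265, Pola2 -0.002, Rfc3 -0.378 and E2f1 -0.365. Without single libraries Orc1 ran from -0.082 to 0.241, Pcna from -0.051 to 0.056, Rfc3 from -0.04 to 0.053 and E2f1 from -0.013 to 0.06. Without the 2 shallow libraries Rfc3 was -0.007 and E2f1 -0.003. The cause was not tested. Counts were low for Orc1, Gins1 and E2f2, at under 5 CPM in all libraries. Whether depth limits a call was not tested.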
